A study of Homo sapiens with 12 samples.

Results

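The immunoproteasome genes and their constitutive counterparts were followed in a pair of established human melanoma cell lines, MALME-3M and SK-MEL-5, kept with interferon gamma (IFN-γ) or left untreated. The genes were chosen by name: the inducible catalytic subunits PSMB8, PSMB9 and PSMB10, the constitutive catalytic subunits PSMB5, PSMB6 and PSMB7, the proteasome activators PSME1, PSME2 and PSME3, and the maturation factor POMP. All 10 were found among the 44700 genes of the count tables, 15830 of which are assembled loci rather than named genes. Total RNA was sequenced in 12 libraries, 3 for each of 4 groups: MALME-3M with IFN-γ at 200 ng/mL, MALME-3M untreated, SK-MEL-5 with IFN-γ at 150 ng/mL, and SK-MEL-5 untreated. The treatment lasted 24 h and began when the cells were seeded in triplicate wells, so the spread between libraries is that between wells, and p-values measure only that spread. Both lines are labelled wild type (WT), and neither carries a transgene in the labels. MALME-3M was kept in IMDM with 20% fetal bovine serum and SK-MEL-5 in MEM with 10%, so line, IFN-γ dose and medium cannot be told apart in any comparison between the lines.

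The proteasome is the barrel-shaped protease that degrades ubiquitin-tagged proteins. Its core, the 20S particle, carries its active sites on β subunits: PSMB5 with chymotrypsin-like, PSMB6 with caspase-like and PSMB7 with trypsin-like activity. Interferon gamma, which acts in part through the transcription factor IRF1, induces alternative catalytic subunits that take their places in newly assembled particles, PSMB8 for PSMB5, PSMB9 for PSMB6 and PSMB10 for PSMB7. Such immunoproteasomes yield peptides suited to MHC class I molecules, which makes them a part of how tumour cells are seen by CD8+ T cells. PSME1 and PSME2 form the cytoplasmic 11S cap that opens the core, while PSME3 forms a related cap found mainly in the nucleus. POMP guides the maturation of the core and is then degraded by it.

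In the GENCODE 29 annotation of GRCh38, PSMB8 lies on chromosome 6 from 32840717 to 32844703 on the minus strand and PSMB9 from 32844136 to 32859585 on the plus strand, overlapping each other within the MHC region. PSMB10 lies on chromosome 16 from 67934502 to 67937087 on the minus strand. On chromosome 14 PSME1 spans 24136158 to 24138967 on the plus strand, PSME2 24143362 to 24147570 and PSMB5 23016543 to 23035230, both on the minus strand. PSMB6 is on the plus strand of chromosome 17 from 4796144 to 4798503, and PSME3 on the same strand from 42824385 to 42843758. PSMB7 is on the minus strand of chromosome 9 from 124353466 to 124415444, and POMP on the plus strand of chromosome 13 from 28659104 to 28678925. Counts are per whole gene.

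Promoter sequences are shown first because 4 of the 5 members that rose after IFN-γ, all but PSMB9, share a string of letters near their starts. RefSeq windows on GRCh38.p14, reaching from 250 bases before to 50 bases after a gene's start, were given for 8 of the 10 members, as 10 windows. The letters GAAA, followed after 2 further bases of any kind by GAAA again, form a pair of half-sites of the interferon-stimulated response element that IRF proteins bind. They were searched on both strands, occurred in 3.574% of all 35116 windows of this length, and were found in the windows of PSMB8, PSMB10, PSME1 and PSME2. PSMB9 lies head to head with TAP1, the peptide transporter gene, with 488 bases between the starts. The window of PSMB9 had no match, and that of TAP1 had overlapping matches 354 bases from the PSMB9 start. The 30 bases around each match are printed on the strand that reads GAAA, with the match in capitals.
PSMB8, chr6:32844032-32844061, plus strand: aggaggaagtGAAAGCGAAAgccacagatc
TAP1, chr6:32853816-32853845, plus strand: tttagggGAAAGCGAAATCGAAAgcggccg
PSMB10, chr16:67936852-67936881, minus strand: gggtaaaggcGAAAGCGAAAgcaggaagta
PSME1, chr14:24136189-24136218, minus strand: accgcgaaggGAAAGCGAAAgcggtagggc
PSME2, chr14:24146619-24146648, minus strand: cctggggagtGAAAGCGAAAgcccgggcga
All 5 stretches hold the same run, GAAAGCGAAA. Counted from the start of transcription, the match began at position -4 in PSMB8, in the second of its 2 windows, at -134 in TAP1, at -21 in PSMB10, at 6 in PSME1 and at -28 in PSME2. No match was in the windows of PSMB5, PSME3 or POMP. For PSMB6 and PSMB7 no window was given, so they were not searched. The letters TTC and GAA with 3 bases between them, the gamma-activated sequence (GAS), occurred in 7.657% of all windows. They were at position -65 in PSMB8, at -158 and -15 in PSMB5, at -230 in PSME3 and at -189 in the other window of TAP1. The letters GGG and TTTCC with 2 bases between them, a κB site, occurred in 1.911% of all windows and, among these genes, at -72 in TAP1. These are matches of letters, and no binding was measured.

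Each library had between 15514412 and 22921184 counts assigned to genes, and all 10 members passed the filter on low counts that left 15810 genes for testing. The 7 melanocyte lineage markers checked were all detected, with summed levels of 5180 to 5420 CPM (gene counts per 1e6 counts) in MALME-3M with IFN-γ, 5690 to 5760 CPM in untreated MALME-3M, 5530 to 5700 CPM in SK-MEL-5 with IFN-γ and 5890 to 6190 CPM in untreated SK-MEL-5. The 8 leukocyte markers summed to at most 1.48 CPM in any library, and 2 to 4 of them were at 0 throughout a group. The 7 fibroblast markers summed to 15.3 to 18.2 CPM in treated and 18.6 to 19.9 CPM in untreated MALME-3M, and to 128 to 134 CPM in treated and 158 to 187 CPM in untreated SK-MEL-5. The melanocyte and fibroblast sums were thus lower in the treated than in the untreated libraries of each line, and the fibroblast sum was higher in SK-MEL-5, mostly from LUM. The part of these levels in the results was not tested. The leukocyte markers CD3E, MS4A1 and NKG7 had at most 1 count in any library. Some others of the 8 had more, 1 of them 7 to 18 counts in each SK-MEL-5 library and 0 in each MALME-3M library. Genes are said to be called where edgeR's quasi-likelihood p, adjusted by Benjamini-Hochberg over all 15810 genes, was under 0.05, and changes are log2 fold changes ± SE.

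All 3 inducible subunits rose after IFN-γ in both lines, by 3.64 to 9.89 times in MALME-3M and by 6.50 to 11.8 times in SK-MEL-5. Among all genes tested, 9.51% were called higher in MALME-3M and 5.98% in SK-MEL-5, and of the 10 members 5 were called higher in each line, the 3 inducible subunits with PSME1 and PSME2. In RNA from whole wells, a change in the number of cells that use a gene and a change in RNA per cell cannot be told apart. PSMB8, the inducible counterpart of PSMB5, had 128.8, 121.9 and 124.0 CPM in MALME-3M with IFN-γ, against 31.99, 36.53 and 34.36 CPM in untreated MALME-3M. In SK-MEL-5 it had 125.3, 127.2 and 132.7 CPM with IFN-γ, against 22.20, 20.53 and 16.63 CPM untreated. The treated libraries of the lines overlapped in level, whereas every untreated SK-MEL-5 library lay below every untreated MALME-3M library. The change was 1.86 ± 0.076 in MALME-3M (edgeR adjusted p = 7.4e-13) and 2.70 ± 0.080 in SK-MEL-5 (edgeR adjusted p = 4.1e-15).

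PSMB9, the inducible counterpart of PSMB6, had 75.96, 75.67 and 78.29 CPM in MALME-3M with IFN-γ, against 11.36, 12.18 and 11.76 CPM untreated. SK-MEL-5 had 60.94, 72.09 and 65.71 CPM with IFN-γ, against 5.915, 6.412 and 4.411 CPM untreated. The levels of treated and untreated libraries were far apart in both lines, and the changes were 2.70 ± 0.094 in MALME-3M (edgeR adjusted p = 4.8e-14) and 3.57 ± 0.102 in SK-MEL-5 (edgeR adjusted p = 2.3e-15). PSMB10, the inducible counterpart of PSMB7, had the lowest gene counts per kb of the family in every group (TPM differ, as given below). It had 18.81, 15.73 and 18.75 CPM in MALME-3M with IFN-γ, against 1.864, 1.507 and 1.978 CPM untreated, and 10.08, 9.260 and 10.03 CPM in SK-MEL-5 with IFN-γ, against 1.272, 0.8906 and 1.014 CPM untreated. The untreated SK-MEL-5 values rest on 20 gene counts in each library, whereas its transcript estimates there summed to 41.78 to 52.65. PSMB10 overlaps AC040162.1 on its own strand, and the part of this overlap was not tested. Its changes were 3.31 ± 0.157 in MALME-3M (edgeR adjusted p = 7.1e-12) and 3.22 ± 0.173 in SK-MEL-5 (edgeR adjusted p = 4.9e-11). From the summed estimated counts of its annotated transcripts, the change of PSMB10 in SK-MEL-5 was 2.42, still called.

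**Figure D1:**
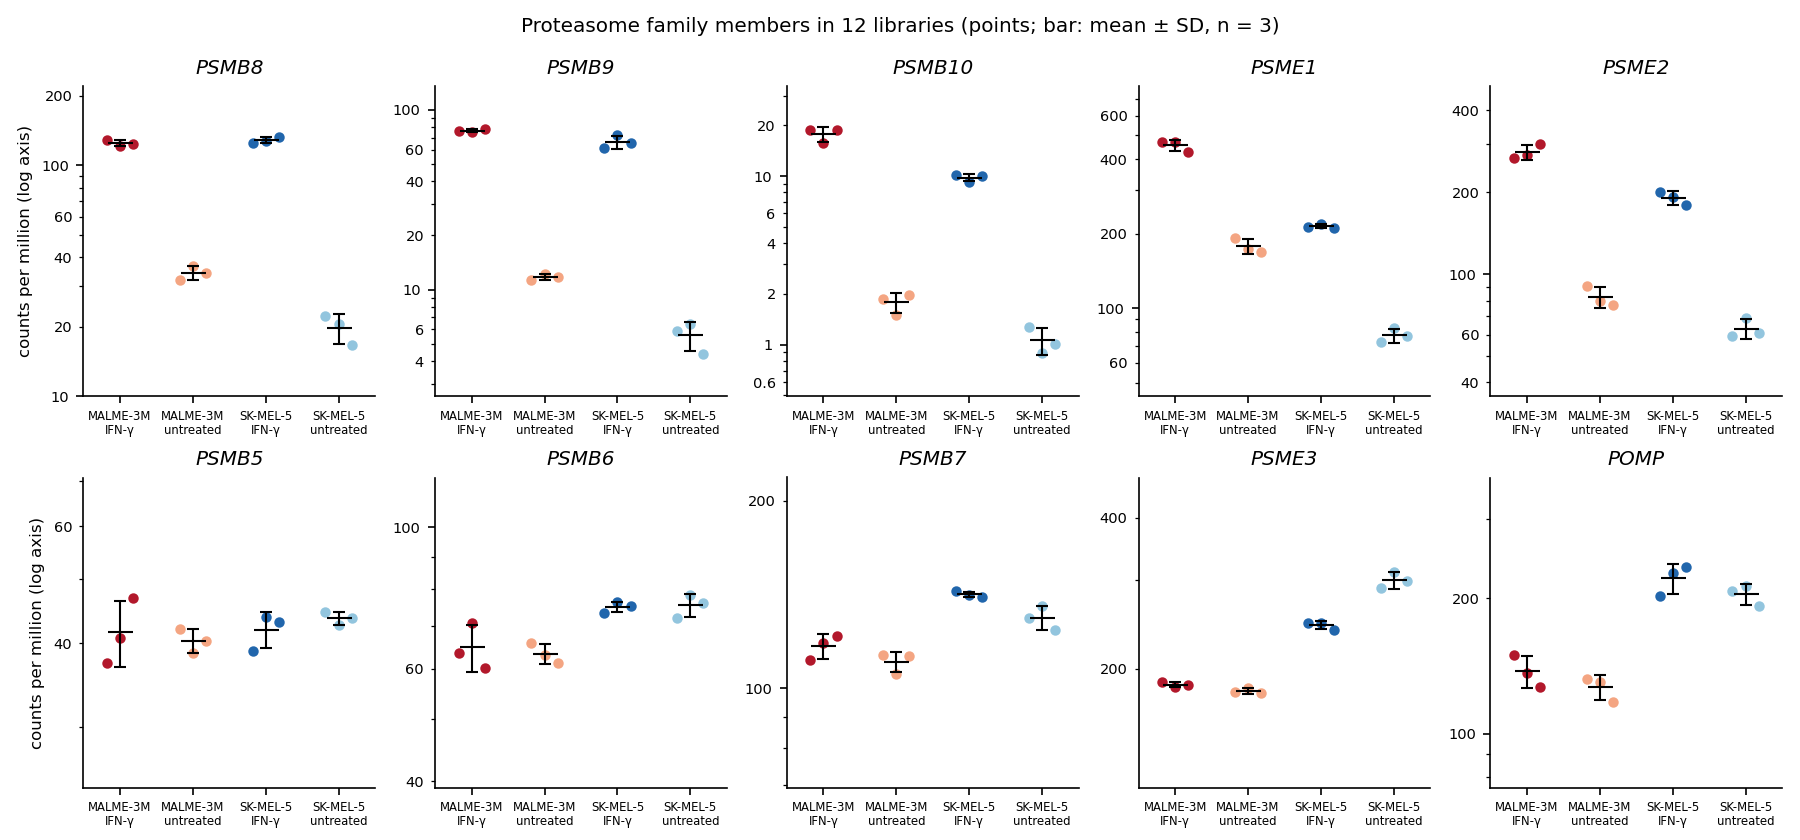
Gene counts in CPM (log axis, with its own range in each panel) of the 10 members in each of 12 libraries, with a bar for the mean ± SD of 3 libraries. In the upper row every treated library lies above every untreated library of its line, whereas in the lower row the treated and untreated libraries of a line lie close together, with PSME3 in SK-MEL-5 lower after IFN-γ at 244.1 ± 4.39 against 300.1 ± 11.2 CPM.

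None of the 3 constitutive catalytic subunits was called after IFN-γ in either line. PSMB5, the target of the drug bortezomib, averaged 41.61 ± 4.75 CPM in treated and 40.34 ± 1.70 CPM in untreated MALME-3M, and 41.96 ± 2.64 CPM in treated and 43.64 ± 1.02 CPM in untreated SK-MEL-5 (SD, n = 3 each). Its change was 0.05 ± 0.077 in MALME-3M and -0.06 ± 0.076 in SK-MEL-5. PSMB6 averaged 64.83 ± 5.41 CPM in treated and 63.33 ± 2.30 CPM in untreated MALME-3M, and 75.03 ± 1.40 CPM in treated and 75.51 ± 3.17 CPM in untreated SK-MEL-5. Treated and untreated libraries of a line overlapped for both genes. PSMB7 had 143.0, 140.9 and 140.1 CPM in treated SK-MEL-5, against 129.7, 135.6 and 124.0 CPM untreated. These libraries did not overlap, yet the change of 0.12 ± 0.053 did not pass (edgeR adjusted p = 0.148). In MALME-3M PSMB7 averaged 116.7 ± 5.27 CPM treated and 110.2 ± 4.22 CPM untreated, with overlapping libraries. The edgeR adjusted p of the constitutive subunits lay between 0.148 and 0.952 over both lines.

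Set against its partner, each inducible subunit gained share in every treated library. Shares were computed within a library from counts per kb of the most abundant annotated transcript of each gene. This compares levels of different genes only roughly, since all counts of a gene are divided by 1 length. For PSME3 that length was 998 bases. Its longer transcript PSME3-202, of 2944 bases, held 21.2% ± 2.18 of its estimated counts in treated MALME-3M. PSMB8 made up 79.9%, 77.5% and 75.3% of PSMB8 plus PSMB5 in treated MALME-3M, against 46.7%, 52.1% and 49.5% in untreated MALME-3M. In SK-MEL-5 its share was 78.7%, 77.0% and 78.0% with IFN-γ, against 36.4%, 35.7% and 30.5% without. The treated libraries of the lines overlapped in this share, whereas untreated SK-MEL-5 lay below untreated MALME-3M. PSMB9 made up 56.3% ± 2.42 of PSMB9 plus PSMB6 in treated and 16.9% ± 0.875 in untreated MALME-3M, and 49.0% ± 1.65 in treated and 7.44% ± 1.30 in untreated SK-MEL-5 (SD, n = 3 each). PSMB10 stayed the minor partner in every library, with 10.9% ± 1.17 of PSMB10 plus PSMB7 in treated and 1.28% ± 0.131 in untreated MALME-3M, and 5.28% ± 0.225 in treated and 0.654% ± 0.128 in untreated SK-MEL-5. These levels depend on the table. With TPM of the annotated transcripts, PSMB9 had 49.6% ± 1.86 in treated and 13.7% ± 0.733 in untreated MALME-3M. In SK-MEL-5 it had 42.1% ± 2.89 treated and 6.29% ± 0.748 untreated. The PSMB10 share by TPM was 19.6% ± 1.09 in treated and 3.71% ± 0.0737 in untreated MALME-3M. In SK-MEL-5 that share was 11.2% ± 0.667 treated and 3.80% ± 0.968 untreated.

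The ratio of inducible to constitutive gene, which does not depend on library scaling, was tested for 5 pairs, the 3 catalytic ones and PSME1 and PSME2 against PSME3. The ratio of PSMB8 to PSMB5 changed by 1.83 on the log2 scale in MALME-3M and by 2.77 in SK-MEL-5, that of PSMB9 to PSMB6 by 2.67 in MALME-3M and 3.59 in SK-MEL-5, and that of PSMB10 to PSMB7 by 3.24 in MALME-3M and 3.10 in SK-MEL-5. Every treated library exceeded every untreated library of its line in all 5 ratios. Within a line, 3 against 3 libraries give a two-sided exact permutation p of 0.10 for each ratio, the smallest that this design allows. With the libraries permuted within both lines together, over 400 arrangements, the two-sided exact p was 0.005 for each of the 5 ratios, the smallest these permutations can give, and 0.005 after adjustment over the 5. PSMB10 and PSMB7 changed in ratio by 3.17 over both lines, PSMB9 and PSMB6 by 3.13, and PSMB8 and PSMB5 by 2.30.

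Summed over the 3 pairs, the inducible genes made up 51.2%, 48.1% and 49.5% of catalytic subunit counts per kb in treated MALME-3M, against 16.5%, 18.9% and 17.8% in untreated MALME-3M. They made up 43.0%, 44.3% and 44.3% in treated SK-MEL-5, against 10.1%, 9.36% and 7.86% untreated. The constitutive genes summed to 227.3 ± 9.54 CPM per kb in treated and 217.9 ± 6.77 in untreated MALME-3M, and to 264.7 ± 2.43 in treated and 254.8 ± 7.48 in untreated SK-MEL-5. With the inducible genes, all 6 catalytic genes together stood at 451.0 ± 6.45 CPM per kb in treated and 265.0 ± 4.38 in untreated MALME-3M, and at 471.7 ± 10.5 in treated and 280.4 ± 9.91 in untreated SK-MEL-5. These sums are descriptions of RNA levels with no test of their own.

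**Figure D2:**
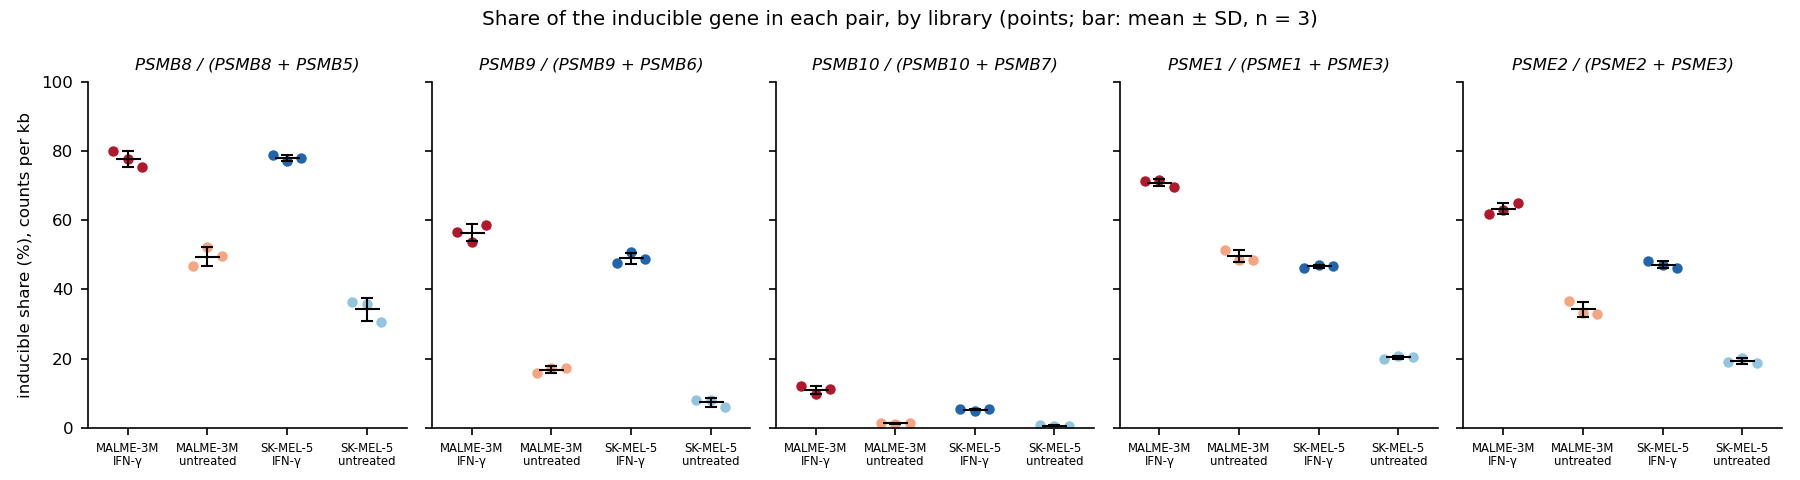
Share of the inducible gene in each of 5 pairs, in percent of the pair's counts per kb, for each of 12 libraries, with a bar for the mean ± SD of 3 libraries. In every pair all treated libraries lie above all untreated libraries of their line, and the pairs differ in level, from 77.6% and 77.9% for PSMB8 to 10.9% and 5.28% for PSMB10 in treated MALME-3M and SK-MEL-5.

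Of the 11S activators, PSME1 and PSME2 rose in both lines and PSME3 did not. PSME1, the α subunit of the interferon-inducible cap, had 471.5, 467.6 and 427.6 CPM in treated MALME-3M, against 192.6, 173.7 and 169.4 CPM untreated. In SK-MEL-5 it had 213.6, 219.6 and 211.0 CPM with IFN-γ, against 72.63, 82.74 and 77.16 CPM untreated. The treated groups lay above their untreated groups by 2.55 times in MALME-3M (1.35 ± 0.059, edgeR adjusted p = 2.0e-12) and by 2.77 times in SK-MEL-5 (1.47 ± 0.060, edgeR adjusted p = 7.8e-13). PSME2, the β subunit of the same cap, had 266.3, 273.7 and 301.5 CPM in treated MALME-3M, against 90.80, 79.39 and 76.73 CPM untreated. In SK-MEL-5 it had 201.0, 191.7 and 179.6 CPM with IFN-γ, against 59.47, 68.98 and 60.78 CPM untreated. The groups again did not overlap, with changes of 1.77 ± 0.073 in MALME-3M (edgeR adjusted p = 8.6e-13) and 1.60 ± 0.074 in SK-MEL-5 (edgeR adjusted p = 4.9e-12). PSME1 and PSME2 are neighbours on chromosome 14, with 4395 bases between them. PSME2 overlaps RNF31 on the other strand, which had at most 2 counts in a library, and PSME1 overlaps EMC9, which had 47 to 85 counts in a library.

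PSME3, the subunit of the nuclear cap, was the only member called lower in either line, in SK-MEL-5. It had 247.0, 246.4 and 239.1 CPM in treated SK-MEL-5, against 289.3, 311.8 and 299.3 CPM untreated. Every treated library was below every untreated one, and the change was -0.30 ± 0.043 (edgeR adjusted p = 6.9e-05). Of all genes tested, 8.77% were called lower in MALME-3M and 7.05% in SK-MEL-5, beside 0 of the 10 members in MALME-3M and 1 in SK-MEL-5. In MALME-3M PSME3 had 188.3, 183.6 and 185.6 CPM with IFN-γ, against 180.0, 182.9 and 178.7 CPM untreated. These libraries did not overlap by a narrow margin, and the change of 0.04 ± 0.043 was not called (edgeR adjusted p = 0.579). PSME3 overlaps BECN1 on the other strand, which had 2180 to 3790 counts in a library.

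The PSME1 to PSME3 ratio changed by 1.31 on the log2 scale in MALME-3M and 1.77 in SK-MEL-5, and the PSME2 to PSME3 ratio by 1.73 in MALME-3M and 1.90 in SK-MEL-5. In counts per kb, PSME1 made up 70.8% ± 1.11 of PSME1 plus PSME3 in treated and 49.5% ± 1.74 in untreated MALME-3M, and 46.6% ± 0.384 in treated and 20.4% ± 0.451 in untreated SK-MEL-5 (SD, n = 3 each). PSME2 made up 63.2% ± 1.62 of PSME2 plus PSME3 in treated and 34.2% ± 2.04 in untreated MALME-3M, and 47.1% ± 1.00 in treated and 19.3% ± 0.729 in untreated SK-MEL-5. Which of the caps stood higher depends on the table in 2 groups. TPM of the annotated transcripts gave PSME1 65.5% ± 2.91 of its pair in untreated MALME-3M and 62.3% ± 1.65 in treated SK-MEL-5, where PSME2 had 57.7% ± 0.440. PSME1 and PSME2 together reached 773.7 ± 3.96 CPM per kb in treated MALME-3M, against 271.7 ± 20.8 untreated, and 431.7 ± 14.5 CPM per kb in treated SK-MEL-5, against 149.2 ± 10.8 untreated.

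POMP, the maturation factor, had 149.4, 136.4 and 127.4 CPM in treated MALME-3M, against 132.2, 130.7 and 117.8 CPM untreated. In SK-MEL-5 it had 202.9, 227.8 and 235.5 CPM with IFN-γ, against 207.8, 212.9 and 192.2 CPM untreated. Treated and untreated libraries overlapped in each line, and the changes of 0.12 ± 0.069 in MALME-3M and 0.12 ± 0.068 in SK-MEL-5 were not called (edgeR adjusted p = 0.279 in MALME-3M and 0.300 in SK-MEL-5). Over the 10 members, the median change was 0.73 in MALME-3M and 0.80 in SK-MEL-5, beside 0.00 in MALME-3M and -0.03 in SK-MEL-5 over all genes tested.

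The lines differed before treatment. Between the untreated groups, MALME-3M over SK-MEL-5, 71.7% of all genes tested were called, 34.5% higher and 37.2% lower, and of the 10 members 5 were called higher, 4 lower and PSMB5 neither. The 5 higher in MALME-3M were the IFN-γ-induced members: PSMB8 by 0.80 ± 0.081, PSMB9 by 1.07 ± 0.11, PSMB10 by 0.78 ± 0.21, PSME1 by 1.20 ± 0.060 and PSME2 by 0.38 ± 0.073. For PSMB10 the call was lost with the estimated counts of annotated transcripts (0.11, edgeR adjusted p = 0.60). The 4 lower in MALME-3M were PSMB6 (-0.25 ± 0.060), PSMB7 (-0.24 ± 0.053), PSME3 (-0.73 ± 0.043) and POMP (-0.69 ± 0.069). The untreated libraries of the lines did not overlap for these 4, nor for PSMB5, which was not called. The share of all genes without overlap was not computed.

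Between the treated groups, MALME-3M over SK-MEL-5, 71.8% of all genes tested were called, 35.4% higher and 36.4% lower, and 8 of the 10 members were, 4 higher and 4 lower. PSMB8 was not called, with 124.9 ± 3.53 CPM in MALME-3M and 128.4 ± 3.85 CPM in SK-MEL-5, a difference of -0.04 ± 0.071. PSMB5 was not called either. PSMB9 was higher in MALME-3M by 0.21 ± 0.082 (edgeR adjusted p = 0.028), a call that was lost in 6 of 18 alternatives, with adjusted p up to 0.157. It was lost without replicate 1 or 3 of treated SK-MEL-5 (0.157 and 0.0739) and without replicate 2 or 3 of treated MALME-3M (0.0579 and 0.0811). PSMB10 was higher in MALME-3M by 0.86 ± 0.13, PSME1 by 1.08 ± 0.058 and PSME2 by 0.56 ± 0.071, while PSMB6, PSMB7, PSME3 and POMP were lower by -0.21 to -0.69.

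The difference between the responses was tested as an interaction, the change in MALME-3M minus that in SK-MEL-5. Of all genes tested, 4.46% were called, 2.67% higher and 1.79% lower, and of the 10 members 3 were called. PSMB8 rose less in MALME-3M than in SK-MEL-5, with a difference of -0.84 ± 0.11 (edgeR adjusted p = 7.3e-05), and so did PSMB9, with -0.86 ± 0.14 (edgeR adjusted p = 6.8e-04). For PSMB8 the untreated levels differed 1.74-fold between the lines while the treated levels overlapped. For PSME3 the difference was 0.34 ± 0.061 (edgeR adjusted p = 0.0021), with its fall in SK-MEL-5. The other 7 members were not called. Among them PSMB10 had a difference of 0.08 ± 0.26, PSME1 had -0.12 ± 0.083 and PSME2 0.17 ± 0.10. Dose and medium differed with the line, so the part of each was not tested.

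In counts per kb the order of levels changed with treatment. In treated MALME-3M PSME1 was first at 452.8 ± 24.1, PSME2 second at 320.9 ± 21.2 and PSME3 next at 186.2 ± 2.40. PSMB7, PSMB8, POMP and PSMB9 followed there and overlapped from each neighbour to the next, with means between 119.1 and 98.01. In untreated MALME-3M PSME3 at 180.9 ± 2.16 and PSME1 at 177.5 ± 12.3 overlapped at the top, as did PSMB5 at 31.17 ± 1.31 and PSMB8 at 30.51 ± 2.02 further down. In treated SK-MEL-5 PSME3 was first at 244.6 ± 4.40, and PSME2 at 218.2 ± 12.3 and PSME1 at 213.5 ± 4.40 followed and overlapped. PSMB8 at 114.2 ± 3.42 stood above PSMB6 at 88.06 ± 1.65 there. In untreated SK-MEL-5 the order ran from PSME3 at 300.7 ± 11.3 through POMP, PSMB7, PSMB6, PSME1, PSME2, PSMB5, PSMB8 and PSMB9 to PSMB10 at 0.869 ± 0.16, and only PSME1 and PSME2 overlapped as neighbours. In counts per kb PSMB10 was last in all 4 groups, and PSMB5 was ninth after treatment in both lines. These ranks depend on the table. With TPM, PSMB10 had 15.8, 17.2 and 22.6 in treated MALME-3M, above PSMB5 in each library (12.7, 13.6 and 19.7). In untreated SK-MEL-5 PSMB10 had 3.55, 2.97 and 4.09 TPM and overlapped PSMB9 at 3.93, 4.77 and 3.58. By TPM, PSME1 and PSME2 stood above PSME3 in treated SK-MEL-5, as did PSME1 in untreated MALME-3M.

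Of 45 further proteasome genes tested, 6 were called higher and 1 lower after IFN-γ in MALME-3M, and 5 higher and 5 lower in SK-MEL-5. All genes tested had 9.51% higher and 8.77% lower in MALME-3M, and 5.98% higher and 7.05% lower in SK-MEL-5. The 5 higher in SK-MEL-5 were also higher in MALME-3M, and all belong to the 20S core, of which 11 subunits outside the family were tested. In the outer α ring, PSMA3 averaged 165.7 ± 3.12 CPM in treated and 132.0 ± 5.85 CPM in untreated MALME-3M, and 140.6 ± 6.50 CPM in treated and 109.1 ± 0.155 CPM in untreated SK-MEL-5. Its changes, 0.33 in MALME-3M and 0.37 in SK-MEL-5, were both called. PSMA5 changed by 0.57 ± 0.066 in MALME-3M and 0.22 ± 0.066 in SK-MEL-5, and PSMA4 by 0.33 ± 0.059 in MALME-3M. PSMA6 changed by 1.12 ± 0.25 in MALME-3M and 0.99 ± 0.27 in SK-MEL-5, at levels of 0.802 to 3.63 CPM. With transcript estimated counts, PSMA6 in SK-MEL-5 had 0.255 and was not called (edgeR adjusted p = 0.074), and PSMA5 in MALME-3M had 1.45 ± 0.61 and was not called (edgeR adjusted p = 0.216).

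Among the β subunits without catalytic activity, PSMB3 changed by 0.34 ± 0.064 in MALME-3M and 0.45 ± 0.063 in SK-MEL-5, and PSMB4 by 0.38 ± 0.055 in MALME-3M and 0.22 ± 0.054 in SK-MEL-5. None of the 6 ATPases of the 19S cap, which unfolds substrates, was called in either line, and of the 13 other 19S subunits 0 were called in MALME-3M and 2 lower in SK-MEL-5. These were PSMD6 at -0.21 ± 0.059 and PSMD1 at -0.17 ± 0.055, calls lost in 8 and 13 alternatives, 6 and 9 of them the loss of a single library. Also lower in SK-MEL-5 were PSMA7 at -0.23 ± 0.047, PSME4, an activator related in function to the 11S caps, at -0.23 ± 0.052, and the ubiquitin ligase UBE3C at -0.17 ± 0.045. The 1 called lower in MALME-3M was PSMA1 at -0.33 ± 0.097, named after its value was seen. None of the 8 assembly chaperones and none of the 4 genes of the NFE2L1 axis, which raises proteasome genes when the protease is inhibited, was called after IFN-γ in either line. PSMB11, the thymus subunit, had 0 to 1 counts in a library and was not tested.

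**Figure D3:**
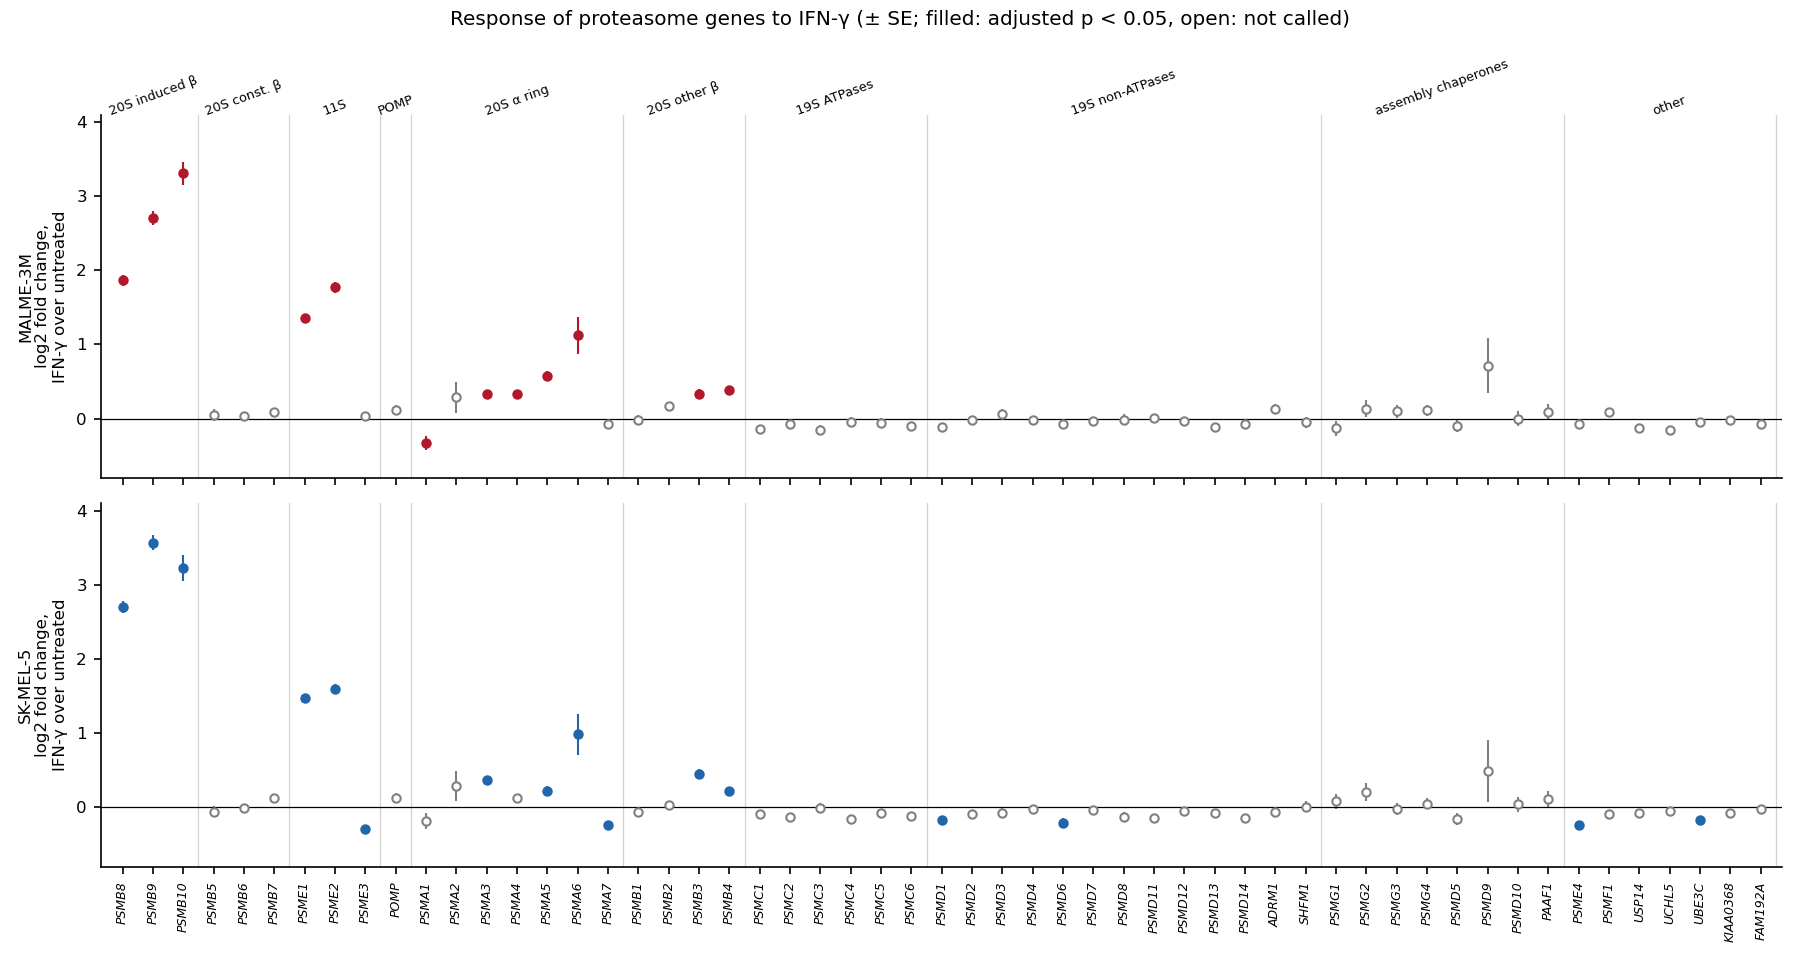
Log2 fold change ± SE of each proteasome gene tested, IFN-γ over untreated, in MALME-3M (above) and SK-MEL-5 (below), grouped by place in the complex, with filled points for called genes and open points for the others. The inducible β subunits reach 1.86 to 3.31 in MALME-3M and 2.70 to 3.57 in SK-MEL-5, and PSME1 and PSME2 stand at 1.35 to 1.77 over both lines, while the 19S genes lie close to 0.

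The regulators and the genes that act next on class I peptides moved in the same direction as the inducible members. All 5 regulators checked were called higher in both lines. IRF1, the transcription factor named above, had 253.0 ± 31.0 CPM in treated and 2.943 ± 0.559 CPM in untreated MALME-3M, and 204.2 ± 2.06 CPM in treated and 5.047 ± 0.767 CPM in untreated SK-MEL-5 (SD, n = 3 each). NLRC5, the transactivator of class I genes, changed by 3.81 ± 0.14 in MALME-3M and 4.16 ± 0.13 in SK-MEL-5. IRF8 changed by 5.15 ± 0.69 in MALME-3M and 7.76 ± 0.32 in SK-MEL-5, with 0 to 0.178 CPM in the untreated libraries, so that these folds depend on few counts. All 6 class I peptide handling genes were also called higher in both lines. TAP1 changed by 3.84 ± 0.081 in MALME-3M and 4.25 ± 0.083 in SK-MEL-5, and TAP2, its partner in the transporter, by 1.89 ± 0.11 in MALME-3M and 1.90 ± 0.12 in SK-MEL-5. B2M, which forms the light chain of MHC class I, changed by 2.32 ± 0.048 in MALME-3M and 1.92 ± 0.047 in SK-MEL-5.

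The transcript estimates gave a further view of PSMB10 and PSME1. The coding transcript PSMB10-201 held 97.2% ± 1.76 of the estimated counts of PSMB10 in treated and 74.8% ± 7.30 in untreated MALME-3M, and 89.6% ± 0.54 in treated and 50.6% ± 10.9 in untreated SK-MEL-5 (SD, n = 3 each). The retained-intron transcript PSMB10-203 had 0 to 30.3 estimated counts in every library, with or without IFN-γ. In PSME1 the coding transcript PSME1-201 held 44.1% ± 4.80 in treated and 60.6% ± 6.74 in untreated MALME-3M, and 48.3% ± 1.93 in treated and 76.0% ± 14.4 in untreated SK-MEL-5. The retained-intron transcript PSME1-209 held 31.7% ± 2.37 in treated and 11.7% ± 2.50 in untreated MALME-3M, and 25.2% ± 1.48 in treated and 7.43% ± 8.61 in untreated SK-MEL-5. Estimated counts of PSME1-209 were 1493 to 2156 in treated and 183 to 294 in untreated MALME-3M, and 516 to 707 in treated and 0 to 189 in untreated SK-MEL-5. These shares are of annotated transcripts only, come from a model that divides reads among overlapping transcripts, and were not tested.

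**Figure D4:**
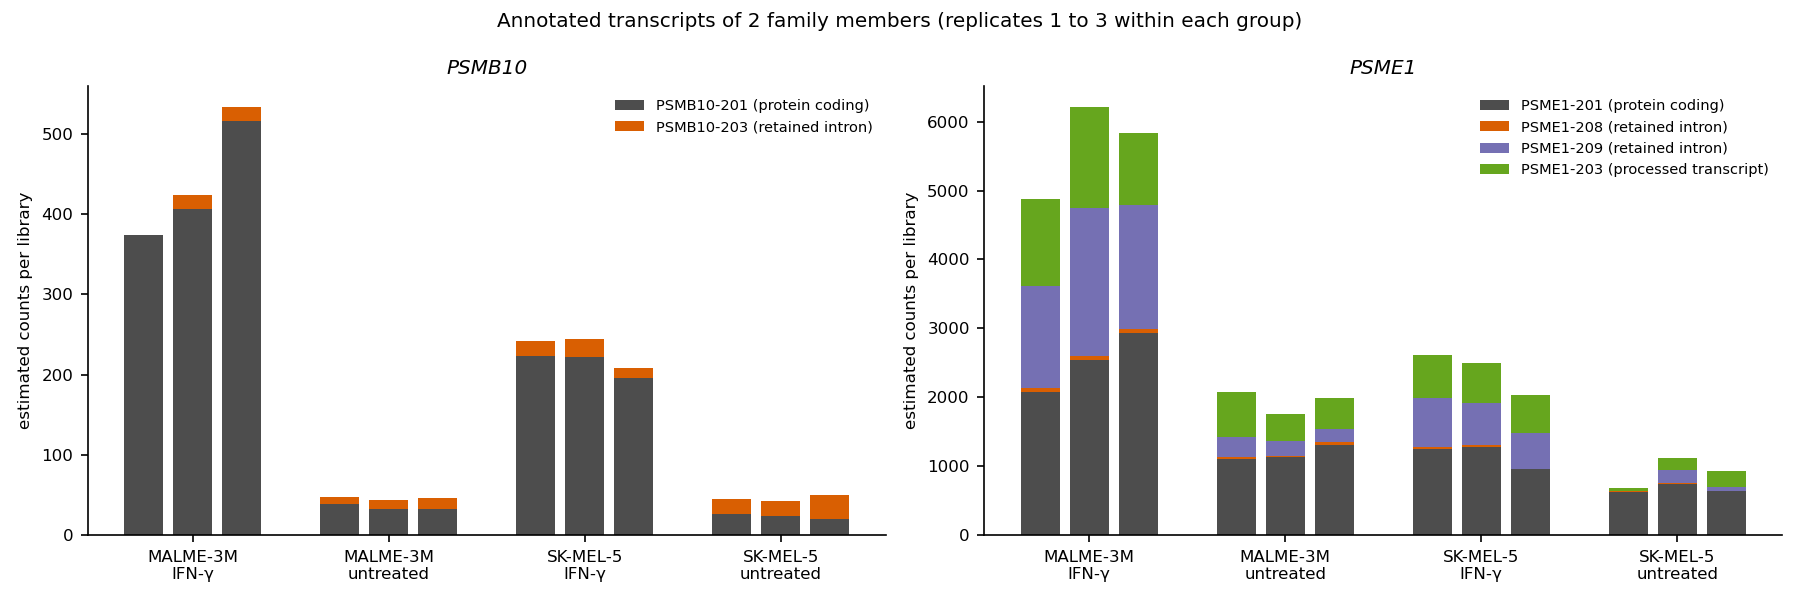
Estimated counts per library of the annotated transcripts of PSMB10 and PSME1, stacked by transcript, with replicates 1 to 3 side by side within each group and libraries not scaled for depth. Treated libraries gain mostly the coding transcript in PSMB10, whereas PSME1 gains coding, processed and retained-intron transcripts, PSME1-209 reaching 1493 to 2156 in treated MALME-3M.

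Over the 12 libraries, the genes most like the mean log2 level of PSMB8, PSMB9 and PSMB10 were PARP9, BTN3A3, UBE2L6, ICAM1 and HLA-E, with Pearson r of 0.996 to 0.998 among 9298 genes compared. Among those most like the mean of PSME1 and PSME2 were HLA-C, HLA-F, NMI and C1R, with r of 0.989 to 0.994. The libraries share treatment and line, which sets most of such an r, and the values are descriptions.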

How the data were processed

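Total RNA of MALME-3M and SK-MEL-5 cells, with IFN-γ or untreated, was sequenced in 12 libraries, 3 per group. The authors deposited, per library, whole-number read counts per gene, not normalized, and a transcript table that lists estimated counts and TPM (transcripts per 1e6 transcripts), per the file headers. Per the submitters' processing notes, HTSeq, kallisto, STAR, SAMtools and cutadapt were used with hg38, and no version is named. Not given in the sources used here are the annotation, the strandedness used for counting and whether molecular identifiers were used. Reads of overlapping genes (PSMB8 with PSMB9, PSMB9 with TAP1, PSME2 with RNF31, PSME1 with EMC9, PSME3 with BECN1, PSMB10 with AC040162.1, PSMB5 with AL132780.4) therefore cannot be told apart, and counting errors assume no PCR duplicates. The summary lines of the count tables were kept out of library sizes. In these lines, alignments that were not unique came to 747% to 1373% of a library's gene counts. Reads that fell on no annotated feature came to 53.3% to 85.0% of them. The part of either in the results was not tested.

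Gene counts were tested with edgeR 4.0.16 in R 4.3.3: filterByExpr with a minimum count of 10, TMM scaling, and a quasi-likelihood fit of 4 group means to all 12 libraries (8 residual degrees of freedom, BCV 0.0955), with Benjamini-Hochberg adjustment over 15810 genes and calls below 0.05. Standard errors are the log2 fold change over the square root of F. CPM used TMM-scaled library sizes of the genes tested, except in the marker sums, which used the unscaled counts of all genes. Levels per kb divided CPM by the length of the most abundant annotated transcript. Ratios were tested by two-sided exact permutation. Transcripts were tied to genes by GENCODE 29 on GRCh38, and their estimated counts were summed and rounded for 1 alternative. Of 361686 transcripts listed, 160246 annotated ones were tied to genes, and the 200989 assembled ones were left out. Transcript sums, shares and TPM per gene therefore lack any reads given to assembled transcripts. The fit was tested on simulated data. No pair of replicates agreed within sampling noise (chi-square per gene 6.39 to 19.4). Alternatives were DESeq2 1.42.0, 2 other scalings, no filter on low counts, a fit of the compared groups only, transcript estimated counts, TPM for levels, and each library left out.

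The members, gene lists, tests and alternatives were chosen with earlier results of these data known. Named genes outside the family are the 3 with the largest change among those called in each list and line. Of 94 genes in 17 lists, 93 were matched by symbol or RefSeq synonym, and PSMA8 was not analysed here. Promoter windows are those of RefSeq on GRCh38.p14. Of the genes that the naming rules and marker lists give, 2 are not reported here.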

Additional observations from a re-analysis of the deposited data

Results flagged for a closer look

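The response to IFN-γ differed between MALME-3M and SK-MEL-5 for 7 of the genes named, by the interaction term of edgeR's fit (change in MALME-3M minus change in SK-MEL-5, Benjamini-Hochberg adjusted p over 15810 genes). Of all genes tested, 4.46% were called for this term. The 7 comprise 3 of the 10 members, 1 of the 45 further proteasome genes and 1 of the 5 regulators. The others are 1 called higher and 1 called lower among the 6 class I peptide handling genes. The 3 members were PSMB8 at -0.84 ± 0.11 (adjusted p = 7.3e-05), PSMB9 at -0.86 ± 0.14 (adjusted p = 6.8e-04) and PSME3 at 0.34 ± 0.061 (adjusted p = 0.0021). PSMA5, an α-ring subunit, rose more in MALME-3M, by 0.35 ± 0.093 (adjusted p = 0.037). IRF1 also rose more in MALME-3M, by 1.08 ± 0.17 (adjusted p = 5.4e-04), as did B2M, by 0.41 ± 0.064 (adjusted p = 6.3e-04). TAP1, which shares its promoter region with PSMB9, rose less in MALME-3M, by -0.41 ± 0.11 (adjusted p = 0.034). Line, IFN-γ dose and medium cannot be told apart in these differences.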

How the results depend on the processing

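No paired analysis was possible because the labels give no replicate numbers (those used here follow accession order and only name the libraries). In each of the 5 comparisons, the counts of members called higher and lower stayed within 1.5 times under every alternative run, and the changes of all 5 gene ratios kept their direction and their side of the threshold. The inducible share in treated SK-MEL-5 was 42.0% with TPM, against 43.9% with gene counts. Among the 45 other proteasome genes, 2 rather than 5 passed as higher in SK-MEL-5 with transcript estimated counts (3 to 5 when each library was left out, 3 without untreated replicate 2 or treated replicate 3), and 2 rather than 5 were called lower with transcript estimated counts or with only the 2 groups compared (2 to 5 when each library was left out, 2 without untreated replicate 1 or 2 or treated replicate 3, and 3 without replicate 1 of treated SK-MEL-5 or replicate 1 or 3 of treated MALME-3M). In MALME-3M 4 rather than 1 were called lower with DESeq2 size factors, upper-quartile scaling or the DESeq2 Wald test, 0 with transcript estimated counts, and 0 to 2 when each library was left out (0 without treated replicate 1, 2 without treated or untreated replicate 2). The causes were not tested. Transcript sums held fewer reads than gene counts for most members, though not for PSMB10, and the part of this was not tested either.

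In SK-MEL-5 the calls of PSMA6 (adjusted p = 0.074), PSMB4 (0.0514) and PSME4 (0.935), and in MALME-3M that of PSMA5 (0.216), were lost with transcript estimated counts. In SK-MEL-5 the call of PSMA6 was also lost without untreated replicate 2 (adjusted p = 0.107) or treated replicate 3 (0.0884), and that of UBE3C without untreated replicate 1 or 2 or treated replicate 3 (0.0572 to 0.0755). The call of PSMD6 was lost without any of 6 single libraries (0.0637 to 0.135) and that of PSMD1 without any of 9 (0.0653 to 0.240). Reversals of sign befell only changes that were not called. With transcript estimated counts PSMB5 had 0.055 in SK-MEL-5, -0.229 in MALME-3M, -0.284 for the difference of responses and 0.092 between untreated lines. PSMB6 had 0.021 in SK-MEL-5 with only the 2 groups compared. With no filter, POMP had 0.001 for the difference and PSMB5 0.014 between treated lines. Leaving out each library gave PSMB6 -0.045 to 0.020 in SK-MEL-5, PSMB5 -0.066 to 0.106 and PSMB6 -0.034 to 0.066 in MALME-3M, and PSMB5 -0.105 to 0.068 between treated lines. For the difference of responses it gave PSMB10 -0.048 to 0.201, PSMB5 -0.039 to 0.139, PSMB6 -0.023 to 0.079 and POMP -0.106 to 0.041.

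Over all genes, transcript estimated counts gave 527 called higher and 415 lower in MALME-3M, against 1504 and 1386 with gene counts, and 396 higher and 176 lower in SK-MEL-5, against 946 and 1114. For the difference they gave 68 and 69, against 422 and 283, and between lines 3743 lower (untreated), 3653 higher and 3758 lower (treated). The difference had 431 called lower with DESeq2. Without 1 library, genes called lower in SK-MEL-5 numbered 655 to 1148 (655 without untreated replicate 2, 665 without treated replicate 3), and genes called higher for the difference 240 to 355 (275 and 240 without replicates 1 and 3 of treated MALME-3M). The depth limits PSMB10 most, with 20 counts in each untreated SK-MEL-5 library.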
